A study of Mus musculus with 2 samples.

Results

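MHC class II molecules are pairs of an alpha and a beta chain that display peptides from engulfed material to CD4 T cells. They are carried mainly by dendritic cells, B cells and some macrophages. The invariant chain, encoded by Cd74, holds the pair together on its way to the endosome, H2-DM loads the peptide there, H2-O restrains H2-DM, and the coactivator encoded by Ciita switches the genes on. In a graft, cells with class II may come with the donor tissue or with the recipient. The 10 genes of this machinery in the mouse (H2-Aa, H2-Ab1, H2-Eb1, H2-DMa, H2-DMb1, H2-DMb2, H2-Oa, H2-Ob, Cd74 and Ciita) were taken, with every probe set whose annotation gave only 1 of these symbols. These were 19 of 45037 probe sets, and they covered 9 of the 10 genes.

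The arrays compared islet grafts of hyperglycemic and normoglycemic recipients. Hyperglycemic recipients were heterozygous for Akita, a missense mutation of Ins2 that causes insulin deficiency, and normoglycemic recipients were WT C57BL/6 mice. Recipients were male, and each received 50 islets of WT C57BL/6 donors under the left kidney capsule. Grafts were taken at 6 hours after transplantation, and the age of the mice is not given in the labels. Neither the labels nor the methods say how many mice contributed to a sample, so a value may stand for 1 graft or for a pool, and "graft" below means the sample of that condition. Total RNA was hybridized to 1 MOE430 2.0 array per condition, so every value is a single measurement without a replicate error or a p-value, and the effect of blood glucose cannot be told apart from that of genotype. The methods name immunodeficient Rag1-/- Akita mice for a separate insulin secretion assay only.

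The signals, made with MAS5 on a linear scale, had a mean of 499.8 on both arrays after 2% of the probe sets at each end were left out. The array median was 91.5 for the hyperglycemic and 82.9 for the normoglycemic graft, a log2 shift of 0.14, and ratios below are not corrected for it. Of the spiked controls for hybridization, 18 probe sets, the median was 1.91-fold higher in the hyperglycemic graft. A probe set was regarded as measured when at least 1 signal reached the median of its array. Both grafts carried islet and kidney markers. All 8 islet endocrine genes and all 8 proximal tubule genes found on the array reached the median in both grafts. The median log2 ratio of hyperglycemic over normoglycemic was 0.51 for the islet genes and 0.09 for the tubule genes.

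H2-Aa, H2-Eb1 and Cd74 were about 2-fold higher in the hyperglycemic graft, H2-Ab1 was higher by less, and H2-DMa and Ciita differed little. Of the 19 probe sets, 14 were measured, covering 7 genes, and the 5 that were not belong to H2-DMa, H2-Oa, H2-Ob and Ciita. Of the 14, 7 were over 2-fold higher and 0 were over 2-fold lower. Among the 7 were 3 probe sets of H2-Aa and 2 of H2-DMb2, the latter measured through the hyperglycemic graft only. Over all 21629 measured probe sets with 1 symbol, the shares past 2-fold were 8.59% higher and 6.33% lower. The median log2 ratio was 0.98 over the member probe sets, against -0.03 over all. In bulk tissue, more cells of a type cannot be told apart from more RNA per cell.

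These counts moved with the treatment of low signals and with scaling. Of 12 member probe sets that reached the median in both grafts, 5 were over 2-fold higher and 0 lower, where the shares over all such probe sets were 3.35% and 1.88%. With signals raised to the medians, 6 of the 14 were over 2-fold higher and 0 lower, against 4.22% and 2.2% over all. Among 7 member probe sets with both signals at or above 500, a limit chosen after the values were seen, 5 were over 2-fold higher and 0 lower, where the shares over all such probe sets were 1.38% and 0.378%. Median centring of the arrays, which takes out the shift of 0.14, left 4 of the 14 over 2-fold higher and 0 lower, against 7.25% and 8.28% over all measured probe sets.

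Low signals scattered widely, so the weight of a ratio depends on the brightness of its probe set. Between probe sets of the same gene, 1 SD of the ratio was 1.18-fold where the dimmer of the pair had a mean signal (geometric, over both grafts) of 1024 to 4096, 1.27-fold at 256 to 1024, 1.54-fold at 64 to 256 and 2.84-fold at 16 to 64. This is a spread between probe sets within the arrays and not a replicate error, and how much of it is technical was not tested. The chains H2-Aa, H2-Ab1 and H2-Eb1 and the invariant chain had mean signals above 256, apart from 1 dim probe set of H2-Aa. That probe set and the measured probe sets of H2-DMa and Ciita lie between 64 and 256, as do 2 of the 3 of H2-DMb2, and H2-Oa, H2-Ob and the third probe set of H2-DMb2 lie below 64.

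**Figure D1:**
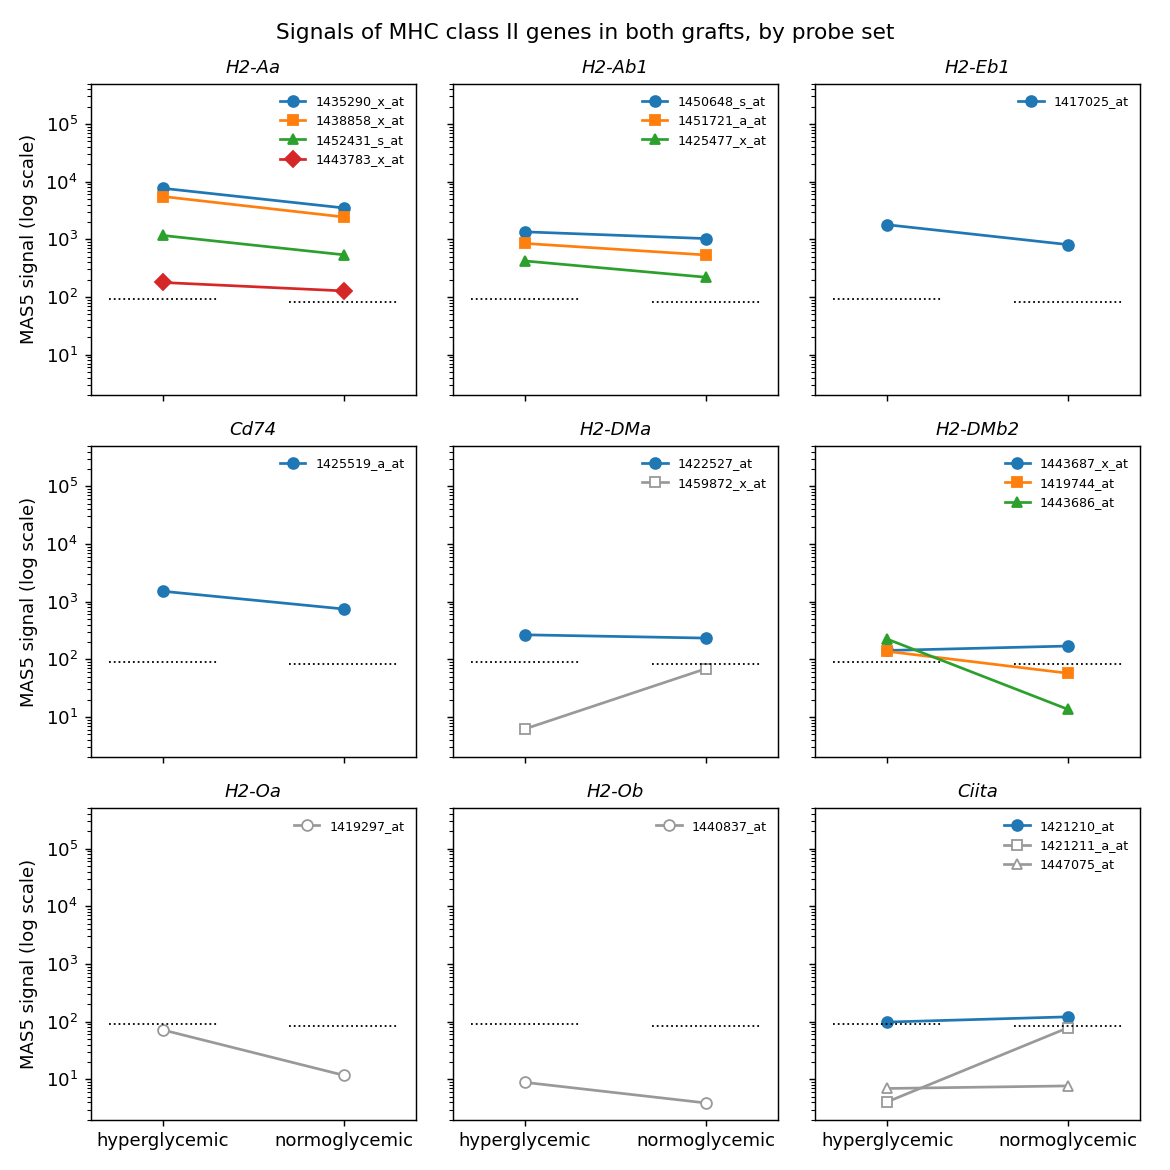
MAS5 signal (log scale) per probe set, hyperglycemic graft on the left and normoglycemic graft on the right, 1 panel per gene; dotted lines are the array medians and open gray symbols mark probe sets below both. The lines of H2-Aa, H2-Eb1 and Cd74 run down to the right, those of H2-DMa and Ciita on their measured probe sets are nearly level.

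H2-Aa, which encodes the alpha chain of I-A, was read by 4 probe sets. Its brightest, 1435290_x_at, had a signal of 7665 in the hyperglycemic and 3503 in the normoglycemic graft (2.19-fold). The signals of 1438858_x_at were 5524 and 2440 (2.26-fold), in the same order of grafts, and those of 1452431_s_at were 1167 and 539 (2.16-fold). The 3 bright probe sets thus gave nearly the same ratio over a wide range of signal. The dimmest, 1443783_x_at, read 179 in the hyperglycemic and 128 in the normoglycemic graft (log2 ratio 0.48). Identifiers ending in _x_at or _s_at mark probe sets that may bind several transcripts, and all 4 of H2-Aa are of these types.

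H2-Ab1 encodes the beta chain that pairs with H2-Aa. On 1450648_s_at its signal was 1348 in the hyperglycemic and 1031 in the normoglycemic graft (1.31-fold). On 1451721_a_at it was 849 against 536 (1.59-fold), and on 1425477_x_at it was 421 against 220 (1.91-fold). All 3 probe sets were higher in the hyperglycemic graft and 0 passed 2-fold. The log2 ratios of H2-Ab1, from 0.39 to 0.94, all lay below those of the 3 bright probe sets of H2-Aa, from 1.11 to 1.18, and only the dim probe set of H2-Aa (0.48) fell among them. Without a replicate, the difference between the partners of the I-A pair could not be tested.

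H2-Eb1 encodes the beta chain of I-E. Its 1 probe set had a signal of 1790 in the hyperglycemic and 810 in the normoglycemic graft (2.21-fold). Mice of the C57BL/6 background are known to lack a functional alpha chain of I-E, and RefSeq annotates H2-Ea as a transcribed pseudogene. All 3 probe sets of H2-Ea were below the medians of both arrays, at up to 81.1 in the hyperglycemic and up to 40.4 in the normoglycemic graft. The beta chain gene was thus bright in both grafts beside an alpha chain gene that was not measured in either. H2-Eb2, a further beta chain gene of the region, was also below the medians, at 84.8 and 50.7.

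Cd74, the invariant chain, had a signal of 1514 in the hyperglycemic and 746 in the normoglycemic graft on its 1 probe set (2.03-fold). H2-Aa, H2-Eb1 and Cd74 therefore had log2 ratios between 1.02 and 1.18 on all of their probe sets with signals of 500 or more.

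**Figure D2:**
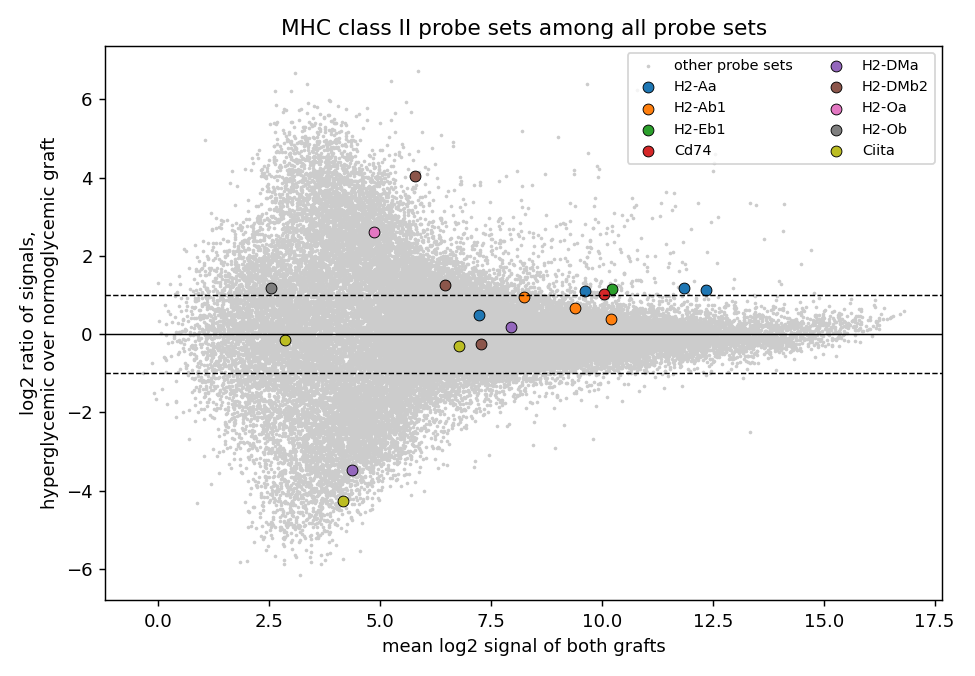
Log2 ratio of the signals, hyperglycemic over normoglycemic graft (y axis), against the mean log2 signal of both grafts (x axis) for all probe sets other than controls (gray) and the 19 MHC class II probe sets (colored by gene); dashed lines mark 2-fold. The bright probe sets of H2-Aa, H2-Eb1 and Cd74 lie just above the upper dashed line, and the ratios beyond it in H2-DMb2, H2-Oa and H2-Ob belong to dim probe sets.

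The H2-DM genes encode the peptide exchanger of the endosome. H2-DMa, its alpha chain, had a signal of 266 in the hyperglycemic and 234 in the normoglycemic graft on 1422527_at (1.14-fold). Its other probe set, 1459872_x_at, was below both medians (6.22 and 68.7). The beta chain has a pair of gene copies, H2-DMb1 and H2-DMb2. No probe set carried the symbol of H2-DMb1 alone, and 2 probe sets that carry both symbols were not used.

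The 3 probe sets of H2-DMb2 did not agree. On 1443687_x_at the signal was 142 in the hyperglycemic and 170 in the normoglycemic graft. On 1419744_at it was 138 against 57.4, at least 1.66-fold with both signals raised to the array medians, and on 1443686_at it was 224 against 13.6, at least 2.71-fold. Only the first of them reached the median on both arrays, and it was the only 1 of the 3 that was not higher in the hyperglycemic graft. No direction can be given for H2-DMb2.

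H2-Oa and H2-Ob encode the inhibitor of H2-DM, known mainly from B cells and thymus. H2-Oa had signals of 71.8 and 11.8 and H2-Ob 8.86 and 3.90 in the hyperglycemic and the normoglycemic graft, all below the medians. No fold is given for them. At these signals neither gene could be detected above the floor used here, which does not show that it was absent.

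Ciita encodes the coactivator that the class II genes need. Its signal on 1421210_at was 98.4 in the hyperglycemic and 121 in the normoglycemic graft, close to the array medians and 1.23-fold lower in the hyperglycemic graft. The other probe sets of Ciita were below both medians, at 4.07 and 78.4 on 1421211_a_at and at 6.94 and 7.70 on 1447075_at. Ciita was therefore not higher on the probe set that could be measured, while its targets H2-Aa, H2-Eb1 and Cd74 were. At such a signal, the ratio does not show that Ciita was equal in the grafts.

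The class II promoters share a control module of an X box, bound by the RFX complex, and a Y box, bound by NF-Y, on which the Ciita protein assembles. RefSeq promoter windows (GRCm38.p6, 250 bases before to 50 after the start) were found for 7 of the 10 genes, with 2 start sites for H2-DMa, and not for H2-Ab1, Cd74 or Ciita. They were searched on both strands for a Y box spelled TGATTGG and an X box of AAC, any 3 bases and TGATG, spellings chosen with these promoters in view, and no match overlapped another. The 130 bases before the start are shown for the 6 genes with a Y box, with matches in capitals, to set the shared module beside the unequal signals of its genes.
H2-Aa, chr17:34287824-34287953, minus strand: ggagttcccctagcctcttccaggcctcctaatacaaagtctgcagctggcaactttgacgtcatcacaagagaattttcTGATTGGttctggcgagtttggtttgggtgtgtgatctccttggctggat
H2-Eb1, chr17:34305737-34305866, plus strand: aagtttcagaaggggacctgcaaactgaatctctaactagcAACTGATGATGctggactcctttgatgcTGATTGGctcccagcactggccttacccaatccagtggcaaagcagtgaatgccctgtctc
H2-DMb1, chr17:34153061-34153190, plus strand: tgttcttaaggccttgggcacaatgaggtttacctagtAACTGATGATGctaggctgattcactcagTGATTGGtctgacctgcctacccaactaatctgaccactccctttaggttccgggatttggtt
H2-DMb2, chr17:34145119-34145248, plus strand: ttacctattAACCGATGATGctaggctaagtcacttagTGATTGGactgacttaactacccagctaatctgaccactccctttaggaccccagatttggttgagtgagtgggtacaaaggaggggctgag
H2-Oa, chr17:34092249-34092378, plus strand: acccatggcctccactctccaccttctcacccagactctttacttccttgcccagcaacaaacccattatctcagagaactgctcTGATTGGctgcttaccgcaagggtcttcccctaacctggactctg
H2-Ob, chr17:34238775-34238904, plus strand: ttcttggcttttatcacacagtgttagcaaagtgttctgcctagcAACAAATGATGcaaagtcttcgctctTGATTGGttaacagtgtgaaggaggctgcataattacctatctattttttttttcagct

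A Y box stood in 6 of the 8 windows, where 7.82% of all 32851 promoter windows held 1, and an X box of this spelling in 4 of 8, against 0.615% of all. Both were in the windows of H2-Eb1, H2-DMb1, H2-DMb2 and H2-Ob, with 15 to 18 bases between them. A match is a description of letters and not a bound site. Since the spellings were chosen with these promoters in view, the shares are not a test of enrichment. A window without a match may still hold a box of another spelling. The Y box was shared by H2-Aa and H2-Eb1, which were over 2-fold higher in the hyperglycemic graft, and by H2-Oa and H2-Ob, which were below the medians in both grafts.

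The factors of this module were counted by gene, with the brightest probe set of each, as were the lists that follow. Over all 12538 measured genes, the share past 2-fold was 7.56% upward and 5.54% downward, with a median log2 ratio of -0.06. Of 10 listed factors, all 10 were measured and 0 were over 2-fold higher or lower, a count too small to set apart from these shares, and their median log2 ratio was -0.17. Rfx5, the DNA-binding subunit of RFX, had a signal of 212 in the hyperglycemic and 285 in the normoglycemic graft. Its partners Rfxap and Rfxank had signals of 362 against 577 and of 328 against 194. The subunits of RFX thus did not move in 1 direction. Nfya, a subunit of NF-Y, was the nearest to a 2-fold difference, at 126.6 against 249.5.

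**Figure D3:**
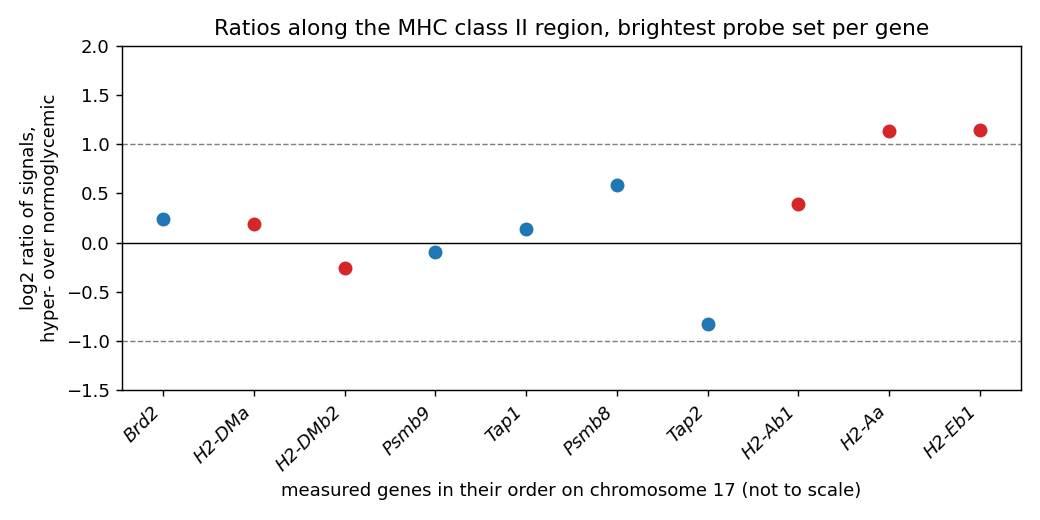
Log2 ratio of the signals, hyperglycemic over normoglycemic graft, for measured genes in their RefSeq order on chromosome 17 from Brd2 to H2-Eb1, 1 probe set per gene, with MHC class II genes in red and other genes in blue; dashed lines mark 2-fold. H2-Aa and H2-Eb1 lie above the upper dashed line, and the genes between H2-DMb2 and H2-Ab1 lie on both sides of 0.

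Along chromosome 17 the class II genes are interrupted by genes of class I antigen processing. By RefSeq order, Psmb9, Tap1, Psmb8 and Tap2 lie between H2-DMb1 and H2-Ob. The immunoproteasome subunit gene Psmb8 had a signal of 510 in the hyperglycemic and 339 in the normoglycemic graft (log2 ratio 0.59). The peptide transporter gene Tap2 had signals of 267 and 473 in the same order and was 1.77-fold lower in the hyperglycemic graft. Psmb9 and Tap1, given here for their position, had log2 ratios of -0.10 and 0.14. The neighbors H2-Aa and H2-Eb1, with log2 ratios of 1.13 and 1.14, therefore lay in a region where other genes had ratios on both sides of 0.

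Class I genes, which most cells carry, were set beside those of class II. Of 14 measured genes of class I and its processing, 0 passed 2-fold in either direction on their brightest probe set, and the median log2 ratio was 0.17. The shares over all measured genes were 7.56% upward and 5.54% downward, and a count this small cannot be set apart from them. Counted by probe set, as for the 14 of class II above, 2 of 28 passed 2-fold upward and 2 downward, with a median log2 ratio of 0.15. These counts are close to the shares of 8.59% and 6.33% over all measured probe sets. B2m, the light chain of class I, had a signal of 13535 in the hyperglycemic and 9865 in the normoglycemic graft (1.37-fold), and H2-K1, a heavy chain, 9054 and 7865. The probe sets of the heavy chains did not agree, since H2-K1 had signals of 1448 and 712 on 1427746_x_at (2.03-fold) and of 54.6 and 162.5 on 1450534_x_at, and H2-D1 had 258 and 71.7 on 1450170_x_at (at least 3.11-fold) and 7776 and 5746 on 1451784_x_at (1.35-fold). H2-M3, a class I heavy chain gene that presents formylated peptides, was the highest of the brightest probe sets at 466 against 235 (1.98-fold). By gene, 3 of 7 measured class II genes were over 2-fold higher, with a median log2 ratio of 0.39, and the difference between the class II and class I lists was not tested.

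Interferon gamma is the best known inducer of Ciita and class II in cells that do not carry them at rest. Ifng itself was below both medians, with signals of 5.58 in the hyperglycemic and 7.70 in the normoglycemic graft. Of 11 measured genes of its receptor, signaling and targets, 1 was over 2-fold higher and 0 passed 2-fold in the other direction, close to the shares of 7.56% and 5.54% over all measured genes. Of the 11, 9 had a lower signal in the hyperglycemic graft (median log2 ratio -0.21). Irgm1 and Iigp1, GTPases induced by interferon, had signals of 887 against 1316 and of 409 against 633. Cxcl10, an interferon-induced chemokine, was higher at 349 against 156 (2.24-fold), as was Ifngr1, a chain of the receptor, at 610 against 491 (1.24-fold).

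Endosomal proteases cut the invariant chain and the antigens. Of 12 measured genes of this step, 2 were over 2-fold higher, 0 were over 2-fold lower, and the median log2 ratio was 0.16. The shares over all measured genes were 7.56% and 5.54%, and counts this small cannot be set apart from them. Ctss, cathepsin S, which makes the last cut of the invariant chain in dendritic cells and B cells, had a signal of 6109 in the hyperglycemic and 1462 in the normoglycemic graft (4.18-fold). Ctsc, a cathepsin that activates serine proteases of leukocytes, had signals of 3000 and 1171 (2.56-fold). The other 10 genes did not pass 2-fold. Ctse, cathepsin E, was the lowest at 88.4 against 171 (at least 1.87-fold lower in the hyperglycemic graft), and Ctsh, cathepsin H, was at 5371 against 7321 (1.36-fold lower). Ctsl, cathepsin L, which does the same work as Ctss in the thymic epithelium, had signals of 30403 and 29364, and Ifi30, a thiol reductase of the endosome, 2658 and 2256. Sppl2a, which clears the membrane stub of the invariant chain, was at 1717 against 1846.

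Antigen-presenting cells also need costimulatory ligands, and several of these were higher in the hyperglycemic graft. Of 9 on the array, 5 were measured, 4 of them over 2-fold higher (3 with signals raised to the medians) and 0 over 2-fold lower. The shares over all measured genes were 7.56% and 5.54%. Cd80 and Icosl passed the filter through the hyperglycemic graft only. Of the 3 genes that reached the median in both grafts, Cd86 and Cd274 were over 2-fold higher. Cd86, a ligand of CD28, had a signal of 717 in the hyperglycemic and 89.8 in the normoglycemic graft (7.99-fold), and 422 against 29.6 on its other probe set. Cd80, the related ligand, was at least 2.49-fold higher on its brightest probe set (207 against 54.0) and 1.46-fold higher on 1432826_a_at (121 against 83.0), which reached the median in both grafts. Cd274, the inhibitory ligand PD-L1, had signals of 273 and 130 (2.11-fold), and Cd40 had 200 and 126 (1.59-fold). The ratio of Cd86 was larger than that of any H2-Aa, H2-Ab1, H2-Eb1 or Cd74 probe set.

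Of the CD4 T cell side, 1 of 9 genes was measured, Lat, a signaling adaptor of T cells and mast cells, at 135 against 67.3. Cd4 and the CD3 chains, singled out with their values known, did not reach the median in either graft. Turnover of surface class II is set by the ubiquitin ligase Marchf1, which removes it, and by Cd83, which opposes Marchf1. Cd83 had a signal of 206 in the hyperglycemic and 119 in the normoglycemic graft (1.73-fold), and Marchf1 had 126 and 87.1 (1.44-fold).

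**Figure D4:**
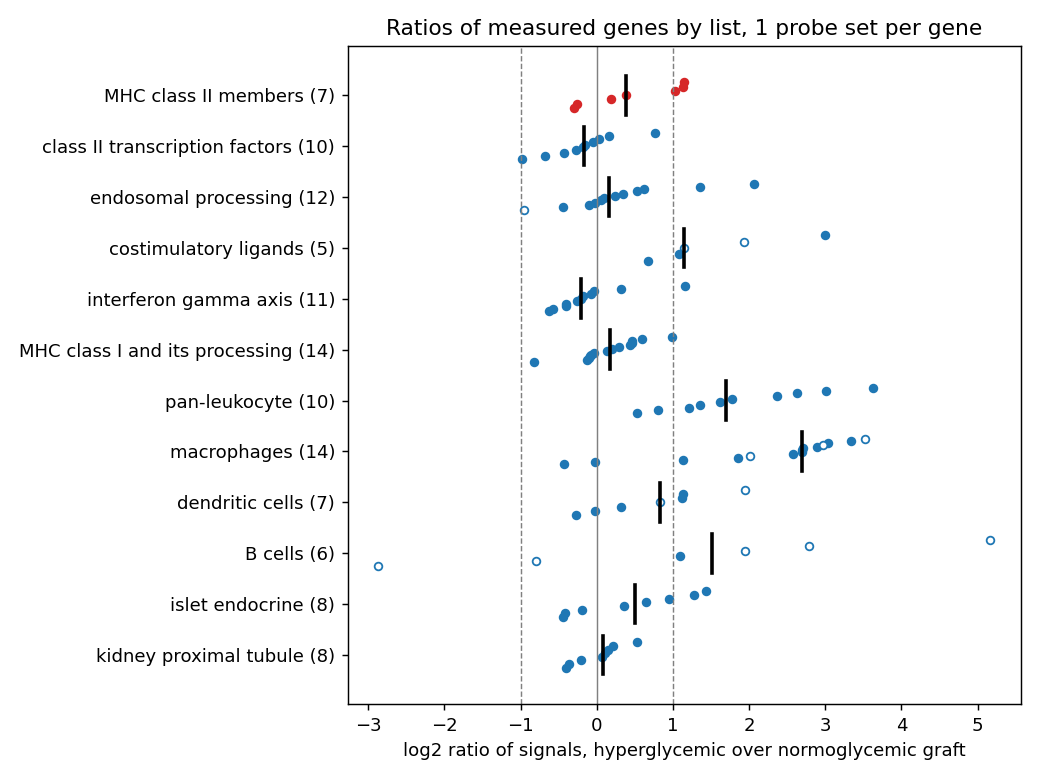
Log2 ratio of the signals, hyperglycemic over normoglycemic graft, 1 point per measured gene, for the MHC class II genes (red) and 11 other lists (blue), with the number of measured genes in brackets; filled points reach the array median in both grafts, open points in 1, black bars are medians and dashed lines mark 2-fold. The median of the class II genes (0.39) lies between those of class I (0.17) and of the macrophage (2.69) and pan-leukocyte (1.69) lists.

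Markers of cells that can carry class II were set beside these results, and likeness of pattern was not computed. Of 14 measured macrophage genes, 12 were over 2-fold higher in the hyperglycemic graft and 0 over 2-fold lower (median log2 ratio 2.69). The shares over all measured genes were 7.56% and 5.54%. Of the 14, 11 reached the median in both grafts. The rest, all among the 12, passed the filter through the hyperglycemic graft only. With signals raised to the medians, 12 were again over 2-fold higher. A lower signal in the hyperglycemic graft was seen for 2 of the 14. The summed signal of the whole list of 15 was 88685 in the hyperglycemic and 12759 in the normoglycemic graft. Lyz2 gave the largest part of both sums. Of the 10 pan-leukocyte genes, all measured, 8 were over 2-fold higher (median 1.69), with summed signals of 28749 and 5142. Cd53, a leukocyte tetraspanin, had signals of 9800 and 796 (12.3-fold), and Lyz2, lysozyme of macrophages and granulocytes, 55987 and 5539 (10.1-fold). The class II ratios near 2-fold were smaller than these. Csf1r, the growth factor receptor of macrophages, was at 6769 against 1872 (3.62-fold), and Mertk, an engulfment receptor, was at 1497 against 1521.

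Dendritic cell and B cell markers were dimmer. Of 12 listed dendritic cell genes 7 were measured, with 3 over 2-fold higher, 0 over 2-fold lower and 2 of the 7 with a lower signal in the hyperglycemic graft. The shares past 2-fold over all measured genes were 7.56% upward and 5.54% downward. Of the 7, 5 reached the median in both grafts, and the rest in the hyperglycemic graft only. The summed signals of the list were 2478 in the hyperglycemic and 2058 in the normoglycemic graft. Itgax, the integrin CD11c, had signals of 206 and 94.7 (2.18-fold), and Cd209a, a lectin of dendritic cells, 201 and 91.6 (2.20-fold). Clec10a, a further lectin, was at 189 against 49.3 (at least 2.28-fold) and passed the filter through the hyperglycemic graft only. The brightest of the list were not higher, with Fscn1, an actin-bundling protein of mature dendritic cells, at 1120 against 1136 and Irf8, a factor of dendritic cell development, at 382 against 463. Fscn1 gave the largest part of both summed signals of the list. Zbtb46, a factor of classical dendritic cells, was at 140 against 112 (1.25-fold). Flt3, Xcr1, Ccr7 and Siglech, singled out with their values known, did not reach the median in either graft.

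Of 10 B cell genes, 6 were measured, 4 were over 2-fold higher (3 with signals raised to the medians) and 1 over 2-fold lower (0 with raised signals). Over all measured genes, without raised signals, the shares were 7.56% and 5.54%. Only Cd22 reached the median in both grafts, at 237 in the hyperglycemic and 111 in the normoglycemic graft (2.13-fold). The others of the 4 passed the filter only through the hyperglycemic graft, where they are high, so their count is not a result on its own. The summed signal of the B cell list was 1470 in the hyperglycemic and 532 in the normoglycemic graft. Ms4a1, which encodes CD20, was at 435 against 63.3 (at least 5.25-fold), whereas Pax5, a factor of B cell identity, had a signal of 15.5 against 113. Of the 10 B cell genes, 6 were below the median in the hyperglycemic and 7 in the normoglycemic graft. The part of macrophages, dendritic cells or B cells in the class II signals was not tested.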

How the data were processed

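The authors deposited linear signal intensities, computed with MAS5, for 45101 probe sets on 2 arrays of total RNA (1 per condition). No version or settings of it are given in the sources used here. The 64 control probe sets were left out. Of the others, 34945 carried 1 gene symbol in the platform annotation, 932 several and 9160 none, and only those with 1 were named. By gene identifier 34737 were found in RefSeq (GRCm38.p6), and 0 symbols were updated. The signals name no genome build, and coordinates are given only for promoter sequences.

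Ratios are hyperglycemic over normoglycemic, without further scaling. A signal below the median of its array was regarded as low. Where only the lower signal was low, both were raised to the medians and the fold was given as a bound. The limit of 2-fold is a limit of size. For lists of genes, the brightest probe set of each gene (by mean log2 signal) was used. The members and the 16 other lists were chosen with earlier results of these data known. All member probe sets were named, and all genes of the lists on factors, proteases, turnover, costimulation and the MIF receptor could be named. Of each other list, up to 3 genes with the largest ratio and up to 3 with the highest signal could be named, with Ifng. Further genes, among them Mertk, Zbtb46, Ifngr1 and H2-D1, were named outside this rule with their values known. The functions were checked on simulated ratios. Alternatives were median centring, quantile normalization, loess (span 0.3, 3 iterations), floors, an added constant, other filters and choices of probe sets. Software was Python 3.11.15 with pandas 2.3.3, numpy 2.4.6, statsmodels 0.14.6 and matplotlib 3.10.9.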

Additional observations from a re-analysis of the deposited data

How the results depend on the processing

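There was 1 array per condition, so no replicate could be left out. No paired analysis was possible because each condition has 1 sample. Of 14 measured probe sets of the class II genes, 7 were over 2-fold higher. The count was 4 with median centring, since Cd74 and 2 probe sets of H2-Aa lie close to the limit. Of these 4, 2 were probe sets of H2-DMb2 with a low signal in the normoglycemic graft. The count was 4 of 7 without probe sets ending in _x_at or _s_at, and 3 of 7 with 1 probe set per gene. Under the other alternatives at 2-fold the count stayed between 5 and 9, and 9 of the 14 passed a limit of 1.5-fold. The count over 2-fold lower was 0 under every alternative except no filter on low signals, where it was 2 of 19. The median log2 ratio of 0.98 became 0.84 with median centring, 0.99 with quantile normalization, 1.01 with loess, 0.83 with signals raised to the array medians, 0.73 with the array median added, 0.80 for probe sets that reached both medians, 0.94 without a filter, 1.02 without _x_at and _s_at probe sets and 0.39 with 1 probe set per gene. All 14 probe sets kept the sign of their ratio under the 3 scalings, both floors and the added median. Of the other lists, that of the proximal tubule had a median log2 ratio of 0.09 that became -0.06 with median centring and -0.04 with quantile normalization, alternatives added after the values were seen. At the signals of the measured probe sets of Ciita and H2-DMa, the ratios of probe sets of the same gene scattered by 1.54-fold (1 SD), more than the ratio of either gene.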

Other observations

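The invariant chain is also known as a surface receptor of the cytokine MIF, with CD44 as its signaling partner. Cd44 had a signal of 3460 in the hyperglycemic and 910 in the normoglycemic graft on its brightest probe set (3.80-fold), and Cxcr4, a further receptor of MIF, had 476 and 140 (3.39-fold). The ligand genes were bright in both grafts. Mif had a signal of 14946 in the hyperglycemic and 18445 in the normoglycemic graft, and Ddt, its homolog, 10081 and 9519. Cxcr2 was below both medians. No difference between these genes and Cd74 was tested.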
